A study of Mus musculus with 18 samples.

Results

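Small nucleolar RNAs (snoRNAs) and small Cajal body RNAs (scaRNAs) were measured at 143 loci, which are all entries of the deposited table whose gene name begins with Snord, Snora, Scarna or Rnu3, out of 47643 gene identifiers. By name they fall into 84 C/D box loci of 64 to 238 nt (median 79.5), 40 H/ACA box loci of 121 to 205 nt (median 132), 9 scaRNA loci of 70 to 414 nt and 10 loci of U3, an unusual C/D RNA, of 213 to 216 nt. The names were checked against the annotation, which types 135 of the loci as snoRNA, 7 as scaRNA and Snord43 as a miRNA. Of the 143 loci 69 lie within an intron of a host gene, 64 overlap an exon of an annotated host transcript and 10 have no host. The table also holds 1417 loci typed as snoRNA or scaRNA under other names, which are used only for comparison.

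C/D snoRNAs form particles with fibrillarin (Fbl), Nop56, Nop58 and Snu13 (Nhp2l1) and guide the methylation of riboses, mostly in ribosomal RNA (rRNA). H/ACA snoRNAs form particles with dyskerin (Dkc1), Nop10, Nhp2 and Gar1 and guide the conversion of uridine to pseudouridine. ScaRNAs guide the same changes on spliceosomal RNAs in Cajal bodies, and U3 takes part in cutting the precursor of rRNA. Most mammalian snoRNAs are released from introns of host genes by exonucleases and carry no poly(A) tail. U3 and Snord118 (U8) are transcribed from genes of their own.

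The RNA was total RNA of the mouse embryonic stem (ES) cell line 5G6GR, grown without feeders on gelatin in serum with leukemia inhibitory factor, puromycin and blasticidin. It was diluted to 10 pg and copied with RT-RamDA, which amplifies cDNA during reverse transcription by strand displacement. The single-stranded cDNA went through 17 cycles of PCR. The 5 primer sets, each with 3 libraries, were not-so-random primers chosen against rRNA with oligo(dT) (NSRdT), random hexamers with oligo(dT) (N6dT), NSR alone, N6 alone and dT alone. The 3 bulk libraries were made from 200 ng of RNA with rRNA removed, N6 primers, another kit and 7 cycles. Input, kit, depletion and cycles differ together between RT-RamDA and bulk and cannot be told apart. The labels do not state whether the 3 libraries of a group were prepared from different cultures, and p-values here rest on the spread between libraries, which may be technical.

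The loci that carry most of the results below are shown as their annotated RNA, 5′ to 3′ on the transcript strand, with the sequence and coordinates of GENCODE vM21 on GRCm38 (mm10). Capitals mark the boxes found by exact letters: TGATGA in the first 25 bases (the C box), CTGA in the last 15 bases (the D box) and ACA in the last 8 bases, each searched on the transcript strand only, with no overlap between these motifs. TGATGA was in its window in 55 of 84 C/D loci (65.5%), against 0.631% of 105572 annotated transcripts of any kind. CTGA was in its window in 77 of 84 C/D loci (91.7%), against 6.83% of those transcripts. ACA was in its window in 38 of 40 H/ACA loci (95%), against 11%. A match describes the letters in that window and is not evidence of a working box. The scaRNAs come first, since they were the highest in bulk RNA. Scarna10 lies at chr6:125186359-125186683, minus strand, where it overlaps an exon of annotated Ncapd2 transcripts, and has TGATGA and CTGA; of the RNAs over 300 nt the first and last 120 bases are shown.
Scarna10 first 120 bases: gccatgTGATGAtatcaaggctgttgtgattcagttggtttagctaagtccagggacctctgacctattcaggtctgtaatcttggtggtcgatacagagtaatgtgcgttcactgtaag
Scarna10 last 120 bases: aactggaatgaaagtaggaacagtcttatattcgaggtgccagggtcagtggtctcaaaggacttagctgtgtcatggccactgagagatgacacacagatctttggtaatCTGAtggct
Scarna2 lies at chr3:108554338-108554751, minus strand, with no annotated host, and ends in CTGA followed by another CTGA.
Scarna2 first 120 bases: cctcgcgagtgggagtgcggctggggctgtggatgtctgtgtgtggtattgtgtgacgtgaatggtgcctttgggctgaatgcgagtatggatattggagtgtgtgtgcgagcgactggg
Scarna2 last 120 bases: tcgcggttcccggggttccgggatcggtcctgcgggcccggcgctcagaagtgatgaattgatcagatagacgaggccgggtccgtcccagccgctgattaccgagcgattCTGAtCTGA
Scarna13 lies at chr12:105031075-105031349, minus strand, in an intron of Snhg10, and has the ACA of the H/ACA class.
Scarna13: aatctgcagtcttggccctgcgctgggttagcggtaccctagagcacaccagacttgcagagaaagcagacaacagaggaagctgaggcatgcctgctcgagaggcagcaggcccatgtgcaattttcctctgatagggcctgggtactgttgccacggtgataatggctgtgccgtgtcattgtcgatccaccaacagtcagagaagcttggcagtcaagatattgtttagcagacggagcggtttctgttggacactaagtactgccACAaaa
Snora73a, the highest H/ACA locus in bulk, lies at chr4:132352775-132352979, minus strand, and overlaps an exon of Snhg3 transcripts.
Snora73a: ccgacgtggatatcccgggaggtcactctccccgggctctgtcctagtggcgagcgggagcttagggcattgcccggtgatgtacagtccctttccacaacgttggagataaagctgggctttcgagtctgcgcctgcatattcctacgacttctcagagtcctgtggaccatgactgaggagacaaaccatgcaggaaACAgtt
Of the C/D loci, Snord17, the longest, lies at chr2:144265979-144266216, minus strand, in an intron of Snx5.
Snord17: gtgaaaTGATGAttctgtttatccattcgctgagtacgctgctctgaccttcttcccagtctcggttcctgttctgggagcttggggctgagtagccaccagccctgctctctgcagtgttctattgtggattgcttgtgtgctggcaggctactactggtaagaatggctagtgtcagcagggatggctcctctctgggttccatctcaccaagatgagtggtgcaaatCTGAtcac
Snord22 lies at chr19:8725866-8725991, plus strand, overlaps an exon of Snhg1 transcripts and has CTGA but no TGATGA in the window.
Snord22: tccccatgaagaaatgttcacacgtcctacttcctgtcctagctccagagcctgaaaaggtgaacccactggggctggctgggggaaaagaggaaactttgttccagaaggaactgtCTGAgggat
Snord47 lies at chr1:161038082-161038158, plus strand, and overlaps an exon of Gas5 transcripts.
Snord47: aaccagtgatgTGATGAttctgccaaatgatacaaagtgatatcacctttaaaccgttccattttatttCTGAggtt
U3 is annotated as pairs of nested entries that differ by 1 base at the end, which is in capitals here: the longer Rnu3a entry of 214 nt, at chr10:40258467-40258680, plus strand, and the longer Rnu3b1 entry of 216 nt, at chr11:87443237-87443452, plus strand, in an intron of Tex14.
Rnu3a: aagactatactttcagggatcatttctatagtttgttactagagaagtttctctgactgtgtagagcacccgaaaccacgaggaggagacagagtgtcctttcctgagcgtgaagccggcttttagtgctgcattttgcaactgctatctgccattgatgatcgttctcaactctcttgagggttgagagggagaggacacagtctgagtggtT
Rnu3b1: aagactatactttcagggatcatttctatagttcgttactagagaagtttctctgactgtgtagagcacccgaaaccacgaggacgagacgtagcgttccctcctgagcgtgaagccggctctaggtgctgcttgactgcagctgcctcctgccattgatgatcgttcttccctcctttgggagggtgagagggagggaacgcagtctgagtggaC

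Estimated counts totalled 5333546 to 10234690 per library, with the lowest in NSRdT replicate 2. Genes annotated as rRNA or mitochondrial took 38.8% of them in NSRdT, 51.1% in N6dT, 45.3% in NSR, 54.5% in N6, 10.4% in dT and 12.8% in bulk. The 143 loci held 710 to 1435 counts in RT-RamDA libraries and 13567 to 14626 in bulk libraries. All 9 ES cell markers were detected in every group. Summed over 8 primitive endoderm markers, bulk replicate 2 had 6271 CPM (counts scaled to the library total), against 775 and 717 CPM in the other bulk libraries. RT-RamDA libraries had 250 to 471 CPM, with Sox17 at 0 in NSR and dT and Foxa2 at 0 in N6 and dT. In RNA from a culture, more such cells and more of their RNA per cell cannot be told apart. The snoRNA and scaRNA sums of that library, 1481 CPM against 1391 and 1364 CPM in the other bulk libraries, stood close to the others, and calls against bulk are also given without it.

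Fewer snoRNA loci were seen with every primer set than in bulk, and fewest with dT alone. With each library thinned to 5333302 counts, loci with at least 1 count numbered 84, 78 and 82 in NSRdT, 71, 74 and 64 in N6dT, 78, 66 and 67 in NSR, 79, 74 and 72 in N6, 48, 47 and 40 in dT and 105, 107 and 111 in bulk. Every dT library lay below every other library, and every bulk library lay above. The thinned counts include rRNA and mitochondrial genes, at 38.8% to 54.5% in sets with random primers, 10.4% in dT and 12.8% in bulk. Detection at one depth without these genes was not tested. The means were 81.3 ± 3.1 (SD, n = 3, as throughout) in NSRdT, 69.7 ± 5.1 in N6dT, 70.3 ± 6.7 in NSR, 75.0 ± 3.6 in N6, 45 ± 4.4 in dT and 107.7 ± 3.1 in bulk. The libraries of a primer set often saw different loci: 47 loci were seen in all 3 NSRdT libraries, 39 in N6dT, 38 in NSR, 38 in N6 and 20 in dT, against 93 in bulk. The 1417 other snoRNA and scaRNA loci were seen less often in all groups, at 9.34% in NSRdT, 8.42% in N6dT, 8.16% in NSR, 8.02% in N6, 3.98% in dT and 16.6% in bulk.

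**Figure D1:**
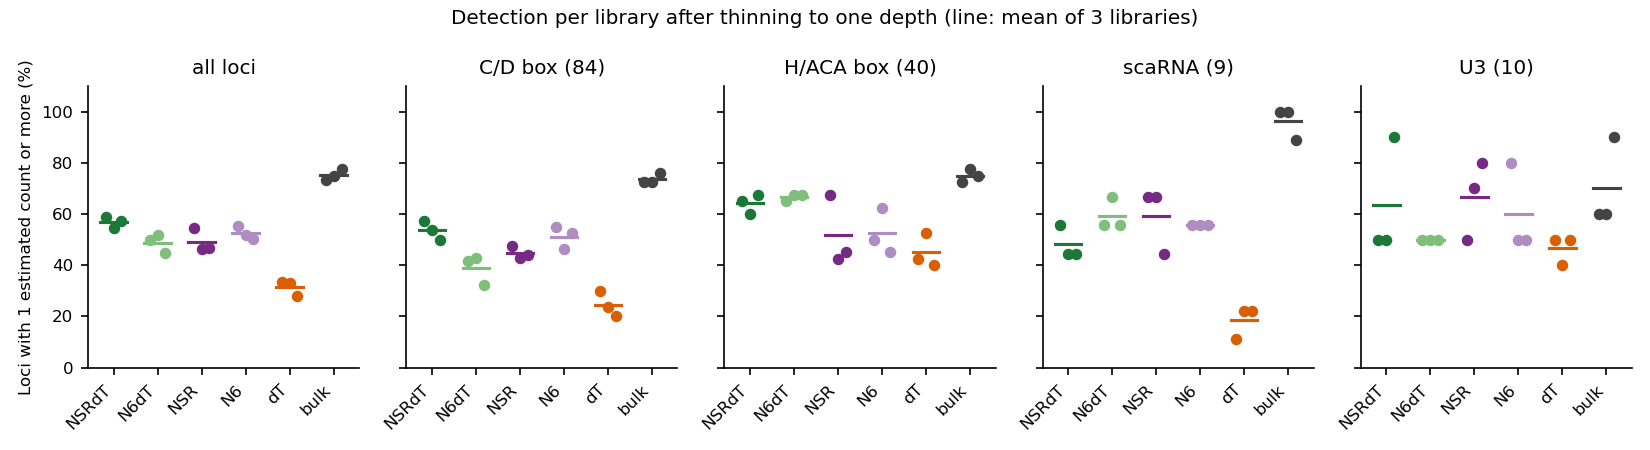
Percentage of loci with 1 count or more per library (vertical axis), after thinning to one depth, for all 143 loci and for each class, with points for libraries and lines for means of 3. The dT libraries lie lowest for all loci (mean 31.5%, against 75.3% in bulk), and most clearly apart for scaRNAs (18.5%, against 96.3% in bulk).

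Detection varied by class. U3 is not given as a class here, since its reads were divided differently within nested pairs in RT-RamDA and bulk. Of the 9 scaRNA loci a mean of 48.1% was seen in NSRdT, 59.3% in N6dT, 59.3% in NSR, 55.6% in N6 and 18.5% in dT, against 96.3% in bulk. C/D loci were seen at 53.6% in NSRdT, 38.9% in N6dT, 44.8% in NSR, 51.2% in N6 and 24.6% in dT, against 73.8% in bulk. H/ACA loci were seen at 64.2% in NSRdT, 66.7% in N6dT, 51.7% in NSR, 52.5% in N6 and 45% in dT, against 75% in bulk. The dT libraries came closer to bulk for H/ACA loci than for C/D or scaRNA loci. The C/D, H/ACA and scaRNA ranges of dT stayed below the ranges of bulk. Loci within introns were seen at 25.1% in dT and 82.6% in bulk, and loci that overlap an exon of a host at 35.4% in dT and 65.1% in bulk. The loci within introns include 8 U3b entries in Tex14, although U3 is transcribed from genes of its own. These counts are descriptions, with no test over the loci.

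Without thinning, 137 of 143 loci had an estimate of 1 count or more somewhere, and 8 had it in each of the 18 libraries: Snord22, Snord83b, Snord100, Snora33, Snora73a, Snora73b, the 213-nt entry of Rnu3a and Scarna2. The shortest locus seen in all 3 libraries was Snord58b (66 nt) in NSRdT and N6, Snord34 (70 nt) in N6dT, Snord110 (68 nt) in NSR, Snord65 (72 nt) in dT and Snord37 (64 nt) in bulk, and the longest was Scarna2 (414 nt) in all 6 groups. 6 loci had no count anywhere: Snord38a, Snord95, Snord96a, Snord116l1, Snord116l2 and Snora35. Of these 6 all but Snora35 share 100% of their 31-mers (stretches of 31 bases) with other genes, and Snhg14, the host of both Snord116 entries, had means of 70.9 to 165 CPM over the 6 groups. In any of the 15 RT-RamDA libraries but none of the 3 bulk libraries 15 loci were seen, and 5 in bulk only. RT-RamDA has more libraries in which a locus can reach 1 count. Of the 15 loci not seen in bulk 4 are 215-nt entries of U3b, each with 0.909 counts in bulk replicate 3. The other 11 share 100% of their 31-mers with other genes. Such loci were counted by the authors' estimate of how reads divide between overlapping transcripts, and 58 of the 143 loci share over 50% of their 31-mers with another gene.

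The summed level of the 143 loci was 173, 144 and 145 CPM of library totals in NSRdT, 113, 104 and 99.4 CPM in N6dT, 139, 112 and 111 CPM in NSR, 123, 93.0 and 104 CPM in N6 and 94.0, 83.8 and 82.6 CPM in dT, against 1391, 1481 and 1364 CPM in bulk. No RT-RamDA library came near the bulk range. The mean sum in NSRdT was 154 ± 16.0 CPM, or 10.9% of the 1412 ± 61.0 CPM of bulk, and in dT it was 86.8 ± 6.24 CPM, or 6.15% of bulk. When rRNA and mitochondrial genes are left out of the totals, the sums are 252 CPM in NSRdT, 216 in N6dT, 221 in NSR, 235 in N6, 96.9 in dT and 1619 in bulk.

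**Figure D2:**
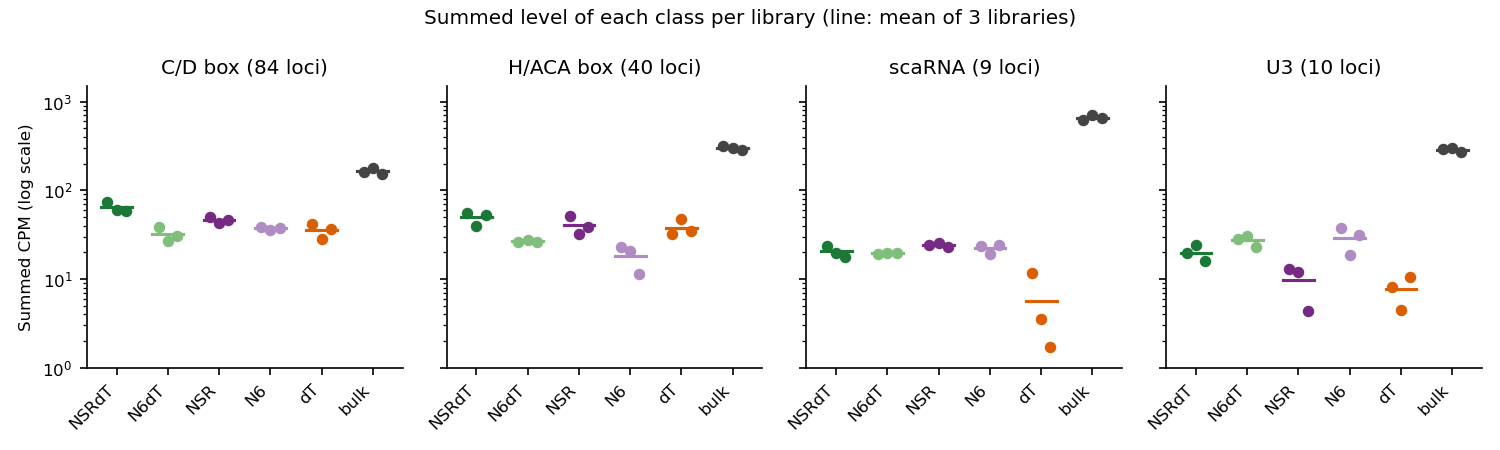
Summed CPM of each class per library (vertical axis, log scale), with points for libraries and lines for means of 3. Bulk lies above all primer sets in every class; in dT the gap is widest for scaRNAs (5.65 CPM in dT, 661.7 CPM in bulk) and narrowest for C/D RNAs (35.6 CPM in dT, 163 CPM in bulk).

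The gap to bulk differed by class. C/D loci summed to 64.2 ± 7.99 CPM in NSRdT, 32.1 ± 6.39 in N6dT, 46.2 ± 3.34 in NSR, 37.2 ± 1.87 in N6 and 35.6 ± 6.78 in dT, against 163 ± 12.2 CPM in bulk. H/ACA loci summed to 49.6 ± 8.51 CPM in NSRdT, 26.6 ± 0.70 in N6dT, 40.7 ± 10.1 in NSR, 18.4 ± 6.08 in N6 and 37.9 ± 8.22 in dT, against 302 ± 14.9 CPM in bulk. For both classes the mean dT sum lay within the means of the sets with random primers. For C/D loci this held by library totals only, since dT fell below those sets with TMM-scaled sizes (25.3, against 43.2 to 62.4) and without rRNA and mitochondrial genes (39.7, against 65.8 to 104.9). For H/ACA loci dT stood below them with TMM-scaled sizes (26.9, against 28 to 48.9) and within them without those genes (42.3, against 40.3 to 81.2). ScaRNAs summed to 20.4 ± 3.1 CPM in NSRdT, 19.4 ± 0.238 in N6dT, 24.1 ± 1.22 in NSR, 22.2 ± 2.87 in N6 and 5.65 ± 5.33 in dT, against 662 ± 41 CPM in bulk. U3 summed to 19.9 ± 3.97 CPM in NSRdT, 27.4 ± 4.01 in N6dT, 9.69 ± 4.65 in NSR, 29.2 ± 9.84 in N6 and 7.66 ± 3.02 in dT, against 286 ± 15 CPM in bulk. As a share of bulk, C/D loci kept 19.7% (N6dT) to 39.4% (NSRdT), H/ACA loci 6.09% (N6) to 16.4% (NSRdT), U3 2.68% (dT) to 10.2% (N6) and scaRNAs 0.854% (dT) to 3.64% (NSR). With TMM-scaled sizes the shares were 26% (dT) to 64% (NSRdT) for C/D loci, 14.9% (dT) to 27.1% (NSR) for H/ACA loci, 3.19% (dT) to 26% (N6) for U3 and 1.02% (dT) to 8.55% (N6) for scaRNAs. Over all 143 loci the share with that scaling was 17.7% in NSRdT, 16.8% in N6dT, 17.1% in NSR, 19.3% in N6 and 7.31% in dT, so the order of the primer sets depends on the scaling.

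A few loci made up most of the bulk signal. The 5 highest loci held 27.2% to 43.1% of the snoRNA and scaRNA CPM with the primer sets and 61.5% in bulk. The 4 longest scaRNAs (Scarna2, Scarna10, Scarna13 and Scarna6) held 13.2% in NSRdT, 18% to 20.2% in N6dT, NSR and N6 and 6.51% in dT, against 45.9% in bulk. The highest per length were Snord22 at 92.6 CPM per kb and Snord49b at 59.3 in NSRdT, and Snord49a at 30.9 in N6dT. They were Snord22 at 116 and Snora73a at 75.6 in NSR, Snord34 at 56.1 in N6 and Snord47 at 73.9, the 77-nt entry of Snord80 at 43.3 and Snord83b at 42.4 in dT. Bulk was led by Scarna2 at 806 CPM per kb, Snora73a at 734 and Scarna10 at 633, followed by the 214-nt entry of Rnu3a at 401 and Scarna13 at 337. The spread between libraries was also wider at low input. Over loci at 1 CPM or more in bulk, the median coefficient of variation was 0.868 in NSRdT, 0.879 in N6dT, 0.866 in NSR, 0.886 in N6 and 1.25 in dT, against 0.177 in bulk. Other genes at that level in bulk had medians of 0.461 in NSRdT, 0.461 in N6dT, 0.488 in NSR, 0.492 in N6, 0.612 in dT and 0.109 in bulk. These other genes were not matched to the loci for level, while low counts alone widen this measure.

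Of 4 length groups only the longest stood apart in how much of the bulk level was kept. The 44 loci under 80 nt summed to 24.0 ± 3.64 CPM in NSRdT, 14.1 ± 1.06 in N6dT, 15 ± 2.88 in NSR, 17.7 ± 1.24 in N6 and 21.3 ± 7.50 in dT, against 63.6 ± 6.03 CPM in bulk. Of the bulk level 22.1% to 37.8% was kept. The 33 loci of 80 or more and under 110 nt kept 37.2% of bulk in NSRdT, 18.3% in N6dT, 23.8% in NSR, 20.9% in N6 and 24.2% in dT. The 46 loci of 110 or more and under 150 nt kept 30.4% in NSRdT, 18.1% in N6dT, 27.5% in NSR, 13.4% in N6 and 21.3% in dT. The 20 loci of 150 nt or over, which include all U3 loci and the 4 longest scaRNAs, summed to 71.2 ± 5.12 CPM in NSRdT, 58.5 ± 5.95 in N6dT, 57.8 ± 10.3 in NSR, 60.7 ± 14.9 in N6 and 25.3 ± 2.96 in dT, against 1167 ± 46.0 CPM in bulk. That is 6.10%, 5.01%, 4.95%, 5.2% and 2.2% of bulk in that order. Of the 4 length groups the longest had the highest sum in bulk and kept the smallest share of it with every primer set, also with TMM-scaled library sizes (9.91% in NSRdT, 11.2% in N6dT, 9.94% in NSR, 13.3% in N6 and 2.57% in dT) and without rRNA and mitochondrial genes in the totals.

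Snora23 (184 nt), from an intron of Ipo7, had the highest share of bulk in NSRdT and NSR among the 10 loci or summed families of 150 nt or over at 1 CPM or more in bulk, with 8.18, 2.62 and 4.59 CPM in NSRdT and 4.24, 2.47 and 0.995 CPM in NSR, against 3.22, 2.94 and 2.41 CPM in bulk. Both sets overlapped bulk, although NSR replicate 3 lay below the bulk range. Of the loci under 80 nt, Scarna9 (70 nt) kept 0% to 3.38% of bulk over the 5 primer sets and Scarna17 (79 nt) 0%. Snord17 (238 nt) kept 0% in dT to 47.5% in NSRdT. Length and class move together here and level in bulk moves with both, and their separate parts were not tested.

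**Figure D3:**
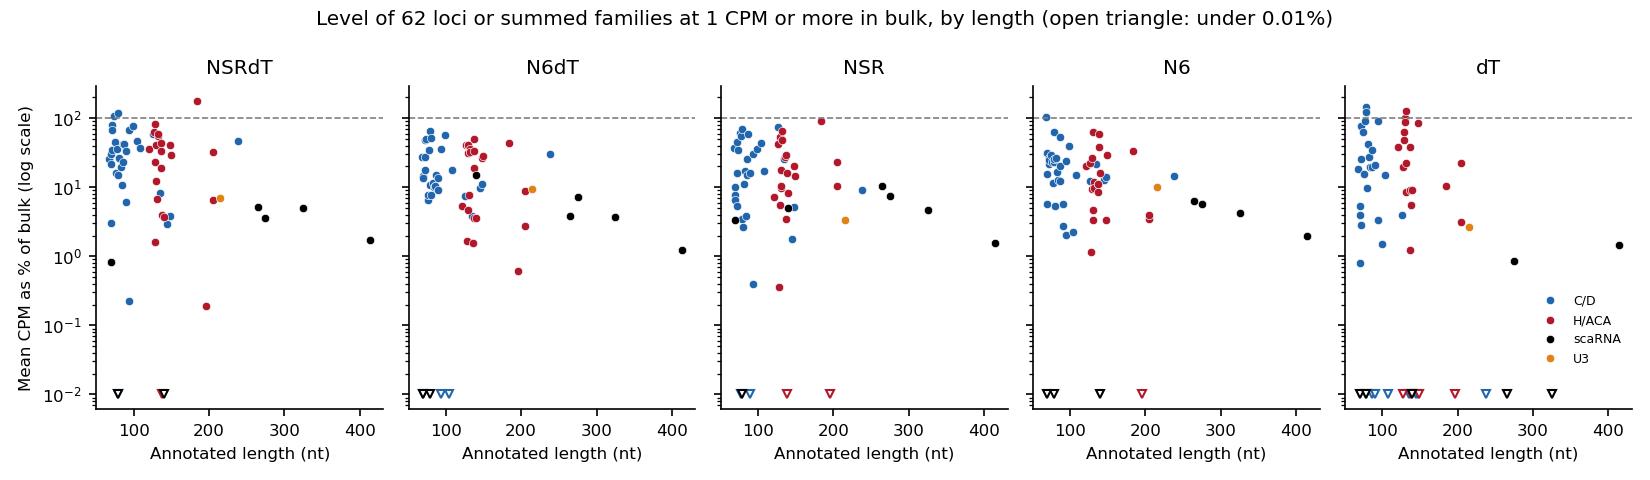
Mean CPM of each primer set as a percentage of the bulk mean (vertical axis, log scale) against annotated length in nt, coloured by class, for 62 loci or summed families (U3, Snord80 and Snora16a) at 1 CPM or more in bulk, with open triangles under 0.01%. Points were chosen by their level in bulk, which favours low shares. Scarna2, the longest, lies at 1.22% to 1.97% of bulk in all 5 panels, and summed U3 at 2.68% (dT) to 10.2% (N6).

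Against bulk, scaRNAs had the largest share of tested loci called lower, tied with single U3 entries in NSR (5 of 6 each). Summed U3 was called lower with all 5 primer sets. Each primer set was tested with bulk alone in edgeR's quasi-likelihood F test with Benjamini-Hochberg adjustment across the whole fitted table, with calls made below an adjusted p of 0.05. In NSRdT 4 of 63 tested loci were called higher and 15 lower, where 5.28% of all tested genes were called, 2.69% higher and 2.58% lower. In N6dT 14 of 57 were lower and none higher, where 4.79% of all tested genes were called, 2.7% higher and 2.09% lower. In NSR 18 of 60 were lower and none higher, where 8.67% of all tested genes were called, 4.01% higher and 4.65% lower. In N6 10 of 58 were lower and none higher, where 7.21% of all tested genes were called, 3.31% higher and 3.9% lower. In dT 25 of 62 were lower and none higher, where 18.8% of all tested genes were called, 6.9% higher and 11.9% lower. The median log2 fold change of the tested loci was -1.08 in NSRdT, -2.10 in N6dT, -2.23 in NSR, -1.58 in N6 and -3.14 in dT, against -0.04, -0.03, -0.03, -0.03 and -0.19 over all genes in that order. With loci at 0 on a side set at their bound, the medians were -1.08, -1.93, -1.94, -1.54 and -2.75. Near-identical U3 entries count here as separate loci. With near-identical loci summed, none were called higher with any set. Called lower were then 11 of 53 in NSRdT, 13 of 52 in N6dT, 14 of 55 in NSR, 10 of 54 in N6 and 22 of 57 in dT. Loci pass the filter on low counts mostly through bulk. These counts and medians, and the calls of loci at 0 with a primer set, are therefore given as a description.

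Scaling by library totals alone, in place of TMM, moved the median of all genes against bulk to -0.75 in NSRdT, -1.23 in N6dT, -1.04 in NSR, -1.39 in N6 and -0.45 in dT. All calls over all genes then split into 179 higher and 3762 lower in NSRdT, against 419 and 402 with TMM, and into 614 higher and 2196 lower in dT, against 1084 and 1873 with TMM. The loci then split into 4 higher and 23 lower of 63 in NSRdT. With the other sets none were higher. Called lower were 37 of 57 in N6dT, 37 of 60 in NSR, 38 of 58 in N6 and 26 of 62 in dT. Of all tested genes 24.2% were then lower in NSRdT, 52.4% in N6dT, 38.6% in NSR, 56.5% in N6 and 14.0% in dT. Without bulk replicate 2 the called loci numbered 10 of 65 in NSRdT, 5 of 61 in N6dT, 11 of 63 in NSR, 6 of 60 in N6 and 15 of 65 in dT, all lower. Over all tested genes those called lower were 146 of 15796, 115 of 15275, 236 of 15627, 216 of 15258 and 916 of 16262 in that order. Leaving out bulk replicate 1 or 3 gave the same counts of loci except in dT, with 6 and 2. In these dT fits 134 of 16475 and 119 of 16311 genes were called lower.

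All 6 tested scaRNAs were called lower in dT than in bulk, and 5 of 6 with each of the other sets. Of all tested genes 11.9% were called lower in dT and 2.09% to 4.65% with the other sets. Scarna2, which in human cells guides methylation of the U2 spliceosomal RNA, had 6.01, 7.31 and 3.99 CPM in NSRdT, 6.0, 2.44 and 3.72 in N6dT, 5.61, 6.56 and 3.36 in NSR, 9.13, 5.50 and 5.11 in N6 and 11.7, 1.48 and 1.39 in dT, against 306, 349 and 346 CPM in bulk. No RT-RamDA library reached the bulk range, and dT replicate 1 stood above the other dT libraries. The log2 fold change over bulk (from TMM-scaled fits, as for all fold changes here) was -5.16 ± 0.22 (SE) in NSRdT (adjusted p = 4.46e-05), -5.15 ± 0.31 in N6dT (0.000147), -5.00 ± 0.25 in NSR (6.76e-05), -4.30 ± 0.23 in N6 (9.16e-05) and -5.83 ± 0.91 in dT (0.00968). The dT call was lost without bulk replicate 1 or 3, at values of -5.88 and -5.79.

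Scarna10, known in human cells as U85 and a guide of both modifications on the U5 spliceosomal RNA, had 12.5, 7.45 and 11.2 CPM in NSRdT, 7.02, 8.34 and 7.30 in N6dT, 10.2, 9.59 and 8.83 in NSR, 7.68, 5.63 and 12.9 in N6 and 0 in all dT libraries, against 201, 230 and 186 CPM in bulk. The sets with random primers overlapped one another, and dT and bulk lay to either side. It was lower than bulk by a log2 fold change of -3.57 ± 0.22 in NSRdT (adjusted p = 0.000302), -3.57 ± 0.15 in N6dT (2.65e-05), -3.42 ± 0.16 in NSR (5.73e-05) and -3.19 ± 0.30 in N6 (0.00104), and at least 576-fold lower in dT (0.000358), with 3 counts per library as the floor. These 5 calls held under each of the 12 alternatives tried. Its host Ncapd2, a condensin subunit with which it shares 85.8% of its 31-mers, had 126 ± 8.75 CPM in dT and 192 ± 5.69 CPM in bulk, so the host gene was detected in the dT libraries in which Scarna10 was at 0.

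Scarna13, an H/ACA scaRNA within Snhg10, had 3.13, 4.87 and 2.06 CPM in NSRdT, 5.62, 6.55 and 8.09 in N6dT, 3.99, 6.19 and 10.4 in NSR, 4.30, 6.68 and 4.85 in N6 and 0, 2.07 and 0.298 in dT, against 85.3, 92.6 and 100.5 CPM in bulk. It was lower than bulk by -4.11 ± 0.31 in NSRdT (adjusted p = 0.0007), -2.58 ± 0.20 in N6dT (0.000525), -2.75 ± 0.34 in NSR (0.00404), -2.77 ± 0.23 in N6 (0.000568) and -6.60 ± 1.07 in dT (0.00968). The last was lost without any 1 of the bulk libraries, at -6.65, -6.61 and -6.53. Scarna9 (10.3, 11.2 and 7.84 CPM in bulk) was at 0 in N6dT, N6 and dT and at most 0.495 CPM in NSRdT and NSR. Scarna17 (2.34, 2.53 and 2.01 CPM in bulk) was at 0 in all 15 RT-RamDA libraries, where 3 counts would be 0.296 to 0.562 CPM. Leaving out any 1 bulk library ended the calls of Scarna9 (fitted log2 values of -9.60 to -3.74) and, except bulk replicate 2 with dT, of Scarna17 (-7.47 to -6.68). Scarna6 (16.7, 16.9 and 13.6 CPM in bulk) was called lower only in dT, where it was at 0, and had 1.92, 0.187 and 0.363 CPM in NSRdT and 3.74, 1.11 and 0 CPM in NSR. That call was lost without any 1 bulk library, at -10.25 to -10.10. Scarna3a, Scarna3b and Scarna8 were at or below 2.11 CPM in every library. Scarna8 had 0.391, 0.917 and 0.393 CPM in N6, against 0.195, 0.304 and 0.201 CPM in bulk, with no test.

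**Figure D4:**
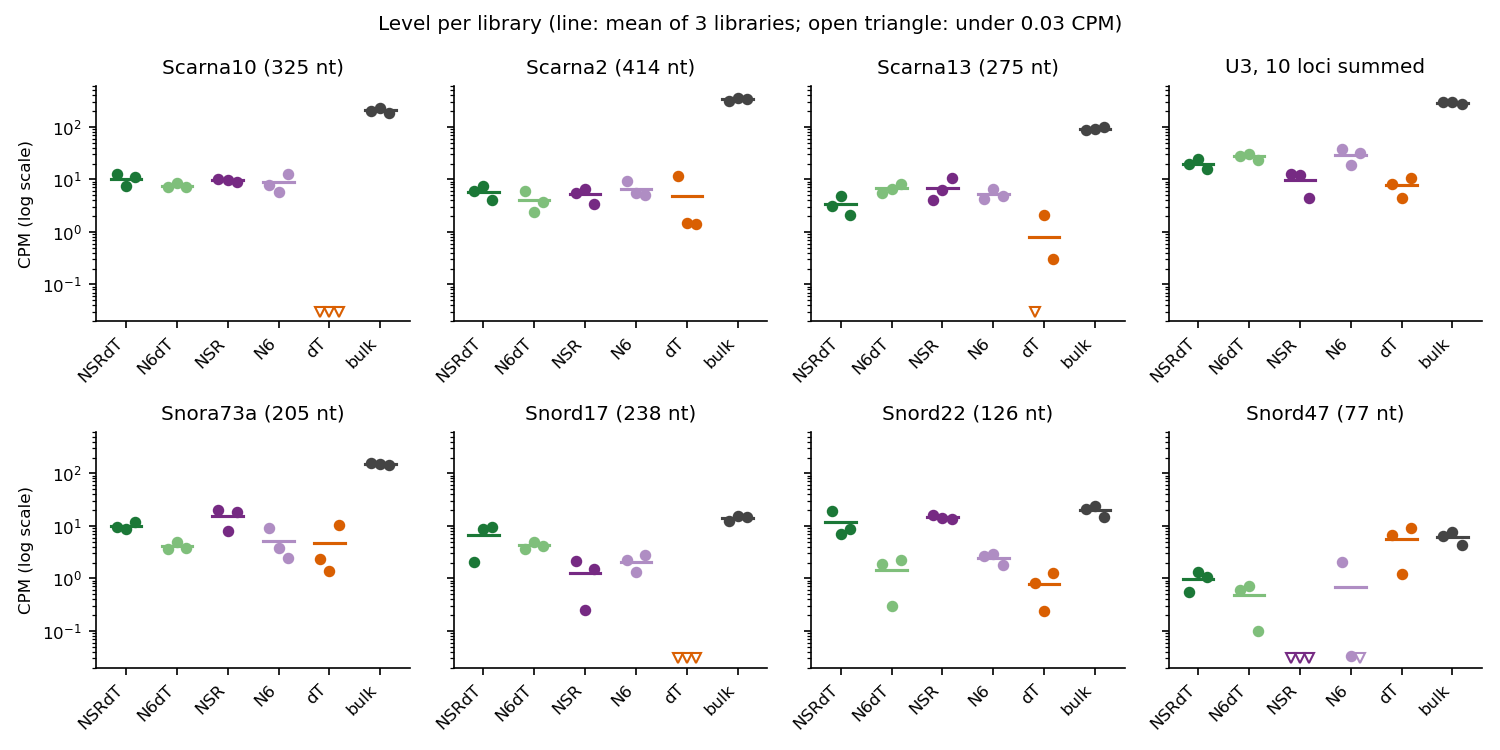
CPM of library totals per library (vertical axis, log scale) for 7 loci and for the sum of 10 U3 loci, with points for libraries, lines for means of 3 and open triangles for values under 0.03 CPM. Scarna10 and Snord17 are at 0 in all dT libraries, while Snord47 is highest in 2 dT libraries and in bulk.

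H/ACA snoRNAs were lower than bulk for 4 of 18 tested loci in NSRdT, 5 of 17 in N6dT, 3 of 18 in NSR, 4 of 18 in N6 and 4 of 20 in dT. Over all tested genes the shares called lower were 2.58%, 2.09%, 4.65%, 3.9% and 11.9% in that order. Snora73a and Snora73b, the mouse U17 RNAs that take part in cutting precursor rRNA, lie in Snhg3, the first over an exon and the other in an intron. Their reads are uncertain as loci because each shares all its 31-mers with other transcripts. Snora73a had 9.39, 8.68 and 11.7 CPM in NSRdT, 3.68, 4.92 and 3.80 in N6dT, 19.9, 7.99 and 18.7 in NSR, 9.25, 3.83 and 2.42 in N6 and 2.31, 1.39 and 10.5 in dT, against 155, 153 and 144 CPM in bulk. It was lower than bulk by -3.20 ± 0.18 in NSRdT (adjusted p = 0.000164), -3.98 ± 0.16 in N6dT (2.4e-05), -2.27 ± 0.33 in NSR (0.00864), -3.51 ± 0.44 in N6 (0.00445) and -4.73 ± 0.78 in dT (0.00971). The last was lost without bulk replicate 1 or 3, at -4.70 and -4.76. Snora73b was nearer to bulk, with 12.4, 7.31 and 3.71 CPM in NSRdT, 7.0, 5.41 and 4.04 in NSR and 2.73, 8.26 and 5.35 in dT, against 27.0, 23.5 and 21.2 CPM in bulk. It was called lower only in N6dT (-2.29 ± 0.38, adjusted p = 0.0195) and N6 (-3.33 ± 0.65, adjusted p = 0.0291). Both were lost without any 1 of the bulk libraries (at -2.38 to -2.19 in N6dT and -3.41 to -3.23 in N6).

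Snora74a, at 46.1, 39.9 and 41.2 CPM in bulk, was nearly absent from RT-RamDA, with 0.242 CPM in 1 NSRdT library, 0.783 CPM in 1 N6dT library and 0 in the other 13. It was lower than bulk at least 56.6-fold in NSR (adjusted p = 0.000894), at least 41.9-fold in N6 (0.00101) and at least 119-fold in dT (0.00294). Snora78, within Snhg9, had at most 0.783 CPM in any RT-RamDA library and 0 in dT, against 24.7, 22.9 and 20.7 CPM in bulk, and was at least 63.8-fold lower in dT (0.00846). These loci are of 196 and 128 nt. The other calls of Snora78 but that in NSR, and that of Snora74a in N6dT, were lost without any 1 bulk library (-6.17 to -4.60). The dT calls of both were lost without bulk replicate 1 or 3, at fitted log2 values of -11.51 and -11.60 for Snora74a and -10.61 and -10.75 for Snora78.

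C/D snoRNAs were called lower than bulk for 1 of 29 tested loci in NSRdT, 3 of 28 in N6dT, 5 of 30 in NSR, none of 28 in N6 and 10 of 30 in dT. Of all tested genes 2.58%, 2.09%, 4.65%, 3.9% and 11.9% were called lower in that order. The C/D counts in NSRdT and N6 were near or under those shares. In NSRdT the 1 locus was Snord21 (at least 5.13-fold lower, adjusted p = 0.0341). In N6dT they were Snord21, the 81-nt entry of Snord80 and Snord82, and in NSR they were Snord14e, Snord15a, Snord21, Snord47 and Snord49a. All of these N6dT, NSRdT and NSR calls were lost without any 1 of the bulk libraries, with fitted log2 values of -8.50 to -2.97. Summed with its near-identical 77-nt entry, Snord80 was not called in N6dT and had the opposite sign (0.57, adjusted p = 0.782). In dT the lower loci were Snord14e, Snord15a, Snord15b, Snord16a, Snord17, Snord22, Snord34, Snord43, Snord70 and Snord118. Snord118, the U8 RNA needed for the large subunit rRNA, was at 0 in all dT libraries, had 0.12, 0.187 and 0.242 CPM in NSRdT and 1.62, 0.124 and 0 CPM in NSR, against 2.34, 2.63 and 1.71 CPM in bulk. Each of these 10 calls was lost without bulk replicate 1 or 3 and, but for Snord14e and Snord118, without bulk replicate 2 (-10.07 to -4.26). Scarna10, Scarna13, Scarna17, Scarna2, Scarna9, Snora73a, Snora74a, Snora78 and the 214-nt entry of Rnu3a were called lower in all 5 comparisons, which share the bulk libraries and are not independent; single U3 entries are uncertain, as described next.

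U3 entries divided their reads differently in RT-RamDA and bulk. Its 2 U3a and 8 U3b entries are nested pairs, as shown by the last base above, and reads cannot be assigned to 1 copy with certainty. The 213-nt entry of Rnu3a took 99.5% to 100% of U3a estimated counts in the 15 RT-RamDA libraries, against 1.08%, 36.3% and 28.3% in the bulk libraries. The 215-nt entries took 87.9% to 100% of U3b counts in 12 RT-RamDA libraries, with 31.1% in NSR replicate 3, 0.0401% in N6dT replicate 2 and 0.0849% in N6 replicate 2, against at most 0.215% in bulk. The 4 U3 loci called higher in NSRdT than in bulk are these 215-nt entries (log2 fold change 6.92 ± 1.0, adjusted p = 0.0134, 80 counts in NSRdT and 1 in bulk). The matching 216-nt entries were called lower (-7.52 ± 0.75, adjusted p = 0.00233). The higher calls were lost without any 1 bulk library, at 6.46 to 8.35, and summed U3 was lower. Levels of single U3 entries thus depend on how reads were divided within a pair, and the family is also given as the sum over all 10 loci, which was chosen after seeing the data.

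Summed, U3 had 19.5, 24.0 and 16.1 CPM in NSRdT, 28.3, 30.8 and 23.0 in N6dT, 12.8, 11.9 and 4.35 in NSR, 37.7, 18.4 and 31.5 in N6 and 8.11, 4.44 and 10.4 in dT, against 292, 297 and 269 CPM in bulk. N6dT and N6 had the highest means among primer sets, and dT the lowest. The sum was lower than bulk by -3.14 ± 0.16 in NSRdT (adjusted p = 0.000107), -2.20 ± 0.14 in N6dT (0.000172), -3.88 ± 0.36 in NSR (0.00103), -1.93 ± 0.25 in N6 (0.00491) and -4.95 ± 0.33 in dT (0.000575). These 5 calls held under each of the 11 alternatives tried. U3a had 5.19, 4.23 and 9.72 CPM in dT and 115, 114 and 98.5 CPM in bulk. U3b had 2.92, 0.206 and 0.710 CPM in dT and 177, 183 and 170 CPM in bulk. U3b with N6, at 28.7, 14.3 and 25.9 CPM, lay above all dT libraries, and U3a with N6, at 8.97, 4.14 and 5.61 CPM, overlapped dT.

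Random primers alone (N6 and NSR together, 6 libraries) were set against dT alone (3 libraries). Where the primers bound on the RNA was not measured. Of 41 tested loci 11 were called higher with random primers and 1 lower (17.1% of 15682 tested genes were called, 9.54% higher and 7.54% lower). By class these were 8 higher and 1 lower of 22 C/D loci, 3 higher of 4 scaRNAs, 0 of 10 H/ACA loci and 0 of 5 U3 entries. An unadjusted p under 0.05 was found for 19 of the 41 loci. The median log2 fold change was 1.85, against 0.12 over all genes, and was also 1.85 with the 8 loci at 0 in dT set at their bound. Those 8 loci passed the filter on low counts only through sets with random primers, which favours higher values. These counts and medians, and the single calls of those 8 loci, are therefore given as a description. By library totals alone 10 loci were called higher and 2 lower, and the medians became 0.92 and -0.80. The calls over all genes were 818 higher and 4330 lower, against 1496 and 1183 with TMM.

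**Figure D5:**
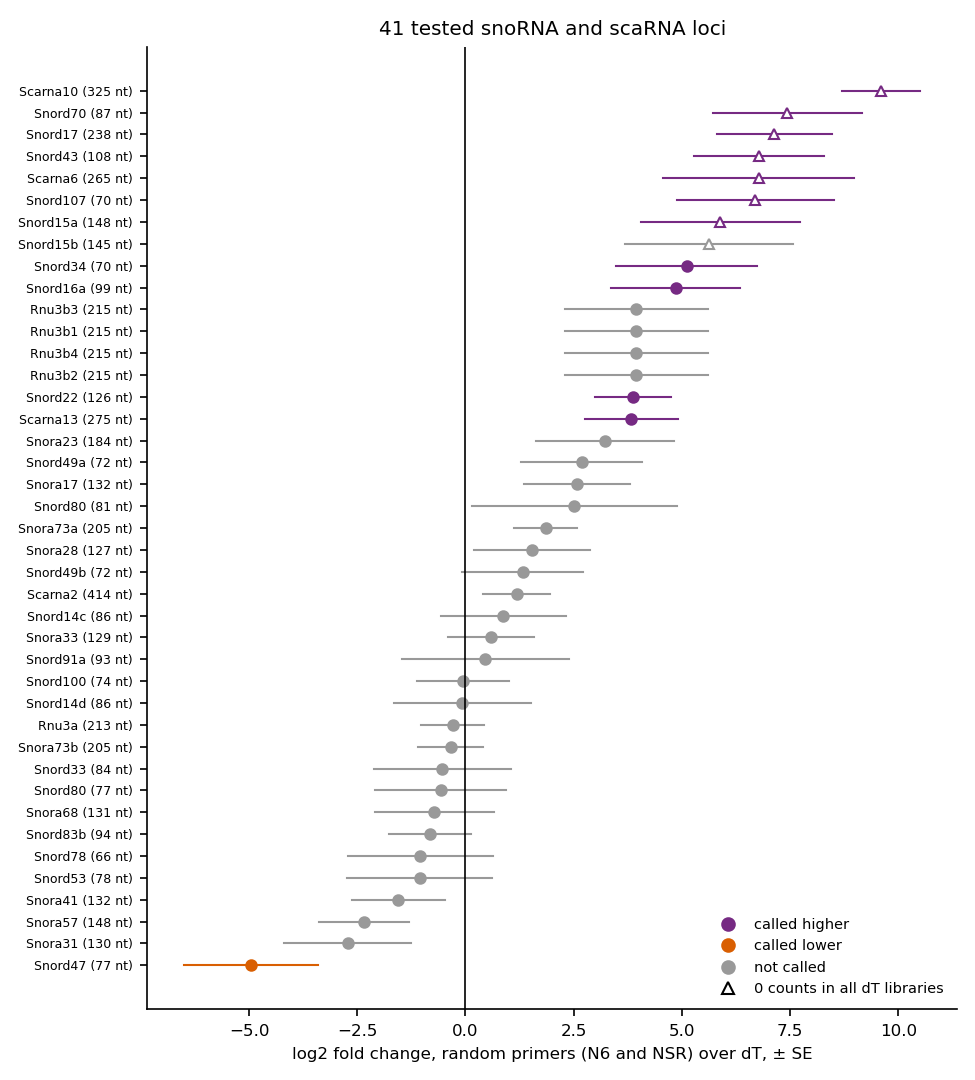
Log2 fold change of random primers (N6 and NSR) over dT with its SE (horizontal axis) for the 41 tested loci, ordered by value, with colours for calls and triangles for loci with 0 counts in all dT libraries, whose fitted values are no bounds. Scarna10 stands highest and Snord47 lowest, and the 10 H/ACA loci are all in grey (not called).

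Scarna10 had the largest fitted difference of the 41, with 10.2, 9.59 and 8.83 CPM in NSR and 7.68, 5.63 and 12.9 CPM in N6, against 0 in dT, which is at least 58.7-fold (adjusted p = 3.55e-06). Scarna13 was higher by 3.83 ± 1.07 (adjusted p = 0.0227), with no overlap between 3.99 to 10.4 CPM in the random primer libraries and 0, 2.07 and 0.298 CPM in dT, a call lost without dT replicate 3 (3.42). Scarna6 was at 0 in dT and in 1 NSR library (at least 8.27-fold, adjusted p = 0.0494), a call lost without any 1 of the libraries but NSR replicate 3. Scarna2 was not called (1.18, adjusted p = 0.342), with 11.7 CPM in dT replicate 1, above every random primer library.

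Among C/D loci Snord17, a guide to the large subunit rRNA within Snx5, had 2.12, 0.247 and 1.49 CPM in NSR and 2.22, 1.31 and 2.75 CPM in N6, against 0 in dT (at least 11.2-fold, adjusted p = 0.00199). Snord70, within an intron of the C/D core protein gene Nop58, had 1.37, 1.48 and 3.61 CPM in NSR and 1.70, 1.05 and 3.02 CPM in N6, against 0 in dT (at least 13.0-fold, adjusted p = 0.00896). Nop58 itself was 0.40 ± 0.13 higher (adjusted p = 0.0373) and by library totals alone lower, at -0.53. Snord43, within Rpl3, had 0.374, 2.10 and 1.62 CPM in NSR and 2.22, 0.917 and 0.525 CPM in N6, against 0 in dT (at least 8.23-fold, adjusted p = 0.00678). For these 3 loci and Scarna10 every random primer library held counts and no dT library did. Their calls held under all 15 alternatives. These loci passed the filter on low counts only through sets with random primers, and only the fit with no filter went without it. The calls are therefore given as a description.

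Snord22, which is encoded in Snhg1, had 15.9, 14.0 and 13.8 CPM in NSR and 2.69, 2.85 and 1.76 CPM in N6, against 0.820, 0.235 and 1.25 CPM in dT. The 3 primer sets did not overlap, and the call (3.86 ± 0.88, adjusted p = 0.0063) held under all 15 alternatives. Its host Snhg1 went the other way, with 88.1 ± 7.73 CPM in NSR and 54.8 ± 9.03 CPM in N6, against 242 ± 30.1 CPM in dT (-0.87 ± 0.16, adjusted p = 0.00161), while all 31-mers of Snord22 are also in Snhg1 transcripts.

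The other higher C/D loci had lower counts. Snord107, which overlaps an exon of Gm38393, was at 0 in dT (at least 7.77-fold, adjusted p = 0.0221). So was Snord15a, within Rps3 (at least 5.26-fold, adjusted p = 0.043). Snord15b, the other guide in Rps3, was also at 0 in dT but not called (adjusted p = 0.0637). Snord34, within Rpl13a, had 120 counts with random primers and 3 with dT (adjusted p = 0.0426). Snord16a, in Rpl4, had 39 and 1 (adjusted p = 0.0352). Leaving out single libraries ended the call of Snord107 without any 1 of the dT libraries, of Snord15a without any 1 of the 9, of Snord34 without any 1 but NSR replicates 1 and 2, and of Snord16a without NSR replicate 1 or 3, N6 replicate 2 or 3 or dT replicate 1 or 2, with log2 values of 3.99 to 6.60 in these settings.

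Snord47 went the other way, with 0 in all NSR libraries and 2.06, 0.0325 and 0 CPM in N6, against 6.70, 1.23 and 9.15 CPM in dT. The groups overlapped, since N6 replicate 1 lay above dT replicate 2. The call (-4.95 ± 1.55, adjusted p = 0.0421) was lost without any 1 of 7 of the 9 libraries (all but N6 replicate 1 and dT replicate 2, at -4.96 to -4.42). Gas5, its non-coding host with which it shares 100% of its 31-mers, was also lower, at 86.3 ± 7.96 CPM in NSR and 76.8 ± 1.48 CPM in N6, against 290 ± 34.3 CPM in dT (-0.90 ± 0.15, adjusted p = 0.000375). Together the Gas5 snoRNA entries (Snord47, Snord78 and both Snord80 entries) had 2.74, 1.33 and 3.1 CPM in NSR and 5.10, 3.41 and 1.73 CPM in N6, against 11.8, 5.54 and 17.2 CPM in dT and 8.47, 11.1 and 8.00 CPM in bulk. The strand of counting is not given in the sources used here and reads of host and snoRNA were divided by estimate, so the part of Gas5 in these values was not tested.

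H/ACA loci gave no call in either direction. Snora57, which has no annotated host, had 1.74, 0.742 and 1.37 CPM in NSR and 0.130, 0.491 and 0 CPM in N6, against 6.27, 8.47 and 0.993 CPM in dT. Snora41, within Eef1b2, had 1.99, 1.61 and 0.995 CPM in NSR and 0, 0.393 and 0.525 CPM in N6, against 0.701, 8.49 and 2.58 CPM in dT. Both pairs of groups overlapped in 1 dT library. Summed over its 10 loci, U3 was higher with random primers (2.05 ± 0.43, adjusted p = 0.00331), with NSR and dT overlapping between 4.35 and 10.4 CPM. By library totals alone this was not called (1.12, adjusted p = 0.0542).

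NSR against N6, with and without dT (6 libraries each), gave no called locus of 41 with edgeR (0.172% of all genes were called, 0.0446% higher and 0.128% lower), although 4 had an unadjusted p under 0.05. Snord22 came closest, with 19.6, 6.91 and 8.53 CPM in NSRdT and 1.84, 0.291 and 2.23 CPM in N6dT, beside the NSR and N6 values above. Every NSR or NSRdT library lay above every N6 or N6dT library (log2 fold change 2.40 ± 0.61, adjusted p = 0.291). DESeq2, and edgeR by library totals alone, each called it, as their only locus of 41. Of all 15682 tested genes DESeq2 called 111, with 36 higher. Library totals called 542 of them, with 528 (3.37%) higher. The other loci under that unadjusted p were Snora73b at 1.81 ± 0.65, Snord34 at -2.29 ± 1.06 and the 213-nt entry of Rnu3a at -1.84 ± 0.63. Their adjusted p ran from 0.0711 to 1 over all alternatives, and none was called. Summed U3 stood at -1.43 ± 0.32 (adjusted p = 0.149 in edgeR) and was called by DESeq2 (adjusted p = 0.00133). The NSR and NSRdT libraries held 4.35 to 24.0 CPM and the N6 and N6dT libraries 18.4 to 37.7 CPM.

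Adding dT to random primers (6 libraries with, 6 without) gave no called locus of 41 by edgeR, where 2.17% of all genes were called, 1.8% higher and 0.376% lower. None had an unadjusted p under 0.05, and DESeq2 called none. The median was 0.05, against -0.02 over all genes. Scarna10, for example, had 7.02 to 12.5 CPM with dT added and 5.63 to 12.9 CPM without. A p above the threshold does not show that levels were equal, and 62 of the 143 loci were under 1 CPM in every group mean. The interaction of NSR with dT called no locus either, with Snord47 alone at an unadjusted p under 0.05 (adjusted p = 1 in edgeR).

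The proteins that bind these RNAs and the long non-coding RNAs that host some of them were tested in the same fits across all genes. With random primers against dT, Nop58 was higher with TMM (0.40 ± 0.13) and lower by library totals alone (-0.53, adjusted p = 0.00428). Fbl (-1.13 ± 0.28), Nhp2l1 (-0.75 ± 0.18) and Nop56 (-0.35 ± 0.11) were lower with both scalings, among 4 C/D core proteins tested of 5 listed. Of 4 H/ACA core proteins Nop10 (-2.34 ± 0.35), Nhp2 (-1.51 ± 0.26) and Gar1 (-1.41 ± 0.43) were lower with both scalings. Dkc1 was not called with TMM and was lower by library totals alone (-1.28, adjusted p = 3.58e-05). Of 13 assembly and Cajal body proteins Pih1d1 and Ruvbl1 were lower with TMM (7.54% of all genes were lower) and 10 were lower by library totals alone (27.6% of all genes). The U3 protein Rrp9 was not called with TMM and was lower by library totals alone (-1.10, adjusted p = 0.0201). Nop10 had 6.85, 5.94 and 2.86 CPM in NSR and 6.65, 5.24 and 11 CPM in N6, against 74.8, 47.0 and 61.4 CPM in dT, with no overlap. It was higher when dT was added (1.66 ± 0.31, adjusted p = 0.00503). Of 18 host long non-coding RNAs tested of 19 listed, Snhg7, Snhg17 and Rian were higher with random primers and Gas5, Snhg1, Snhg5, Snhg6 and Epb41l4aos lower. By library totals alone Snhg17 was no longer called (0.08, adjusted p = 0.862), and the other 7 kept their call and direction. Snhg3, Snhg8, Snhg12, Snhg14 and Snhg20 were lower by library totals alone, so that the hosts split into 2 higher and 10 lower, against 3 higher and 5 lower with TMM. With dT added, Gas5 (0.74 ± 0.12, adjusted p = 0.00165) and Epb41l4aos (2.42 ± 0.57, adjusted p = 0.0341) were higher.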

How the data were processed

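Gene expression was measured by RNA sequencing in 18 libraries of total RNA from mouse 5G6GR ES cells: 3 for each of 5 RT-RamDA primer sets and 3 of bulk RNA. The deposited table holds estimated counts for 115125 transcript entries, made by the authors and the sources used here give no quantifier, aligner or strand setting. The submitters' processing notes name bcl2fastq 2.16.0.10 and the build mm10. Here the estimated counts were summed to 47643 gene identifiers and rounded, and 92 ERCC spike-in entries were left out of library totals. CPM is of these totals unless TMM scaling is named, and an exact 0 is a count of 0 in the estimate.

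All 143 loci matched GENCODE release 21 (mouse) by transcript version and length. Detection used rounded counts thinned without replacement to 5333302 per library (seed 7). Differences were tested two-sided with edgeR 4.0.16 (R 4.3.3), with TMM, filterByExpr and quasi-likelihood F tests: 3 comparisons in 1 fit of the 15 RT-RamDA libraries, with the interaction as an added contrast, and 5 fits of each set with bulk. Adjusted p-values are Benjamini-Hochberg over all tested genes. Folds against a side at 0 use a floor of 3 counts per library. DESeq2 1.42.0, library totals, no filter, the replicate block, removal of rRNA and mitochondrial genes, and each library left out were alternatives, and near-identical loci were summed as one added after seeing the data. The test was tried on simulated counts. Reads came from PCR without molecular identifiers, so the floors cover counting error only. The SD and SE values rest on the spread between libraries, which may be technical. Python 3.11.15 and matplotlib 3.10.9 were used for tables and figures. Named loci were called in a comparison (up to 15 a direction), among the 8 highest of a group, U3 or scaRNA genes with a count, or the shortest or longest seen in a group. Loci detected in every library or in none, those highest per length, and the Gas5 entries were named after their values were seen. Members, lists and tests were chosen with earlier results of these data known.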

Additional observations from a re-analysis of the deposited data

Results flagged for a closer look

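The table also holds 92 ERCC spike-in entries, which the labels do not mention. They took up to 0.536% of estimated counts in RT-RamDA libraries (lowest 0.355%) and up to 1.23% in bulk libraries (lowest 0.890%), a signal in data that no comparison here uses. With 3 libraries per group, no search for a library far from its group was made.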

How the results depend on the processing

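Summing near-identical loci turned the 4 U3b entries of 215 nt called higher in NSRdT to lower (-3.14 for summed U3) and the 81-nt entry of Snord80 called lower in N6dT to 0.57. No other locus result changed direction under the alternatives run, and of the core proteins Nop58 did, at -0.53 by library totals alone. Called loci with random primers against dT numbered 12 of 41 (2679 of 15682 tested genes). They were 20 of 41 by DESeq2 (3962 of 15682 genes) and 7 of 132 with no filter on low counts (2742 of 33131 genes). With 1 library left out they were 7 to 9 of 49 to 53, where 2087 to 2250 of all tested genes were called. NSR against N6 gave 0 of 41 (27 of 15682 genes), 1 by library totals (542 genes) and 1 by DESeq2 (111 genes). It gave 0 for every library left out, where 18 to 32 of all tested genes were called. Adding dT gave 0 throughout, where 269 to 583 of all tested genes were called. Against bulk, library totals alone gave 37 in N6dT (main 14), 37 in NSR (main 18) and 38 in N6 (main 10). With that scaling 52.4%, 38.6% and 56.5% of all tested genes were lower in that order. DESeq2 gave 20 in N6 (2074 of 15207 genes) and no filter 9 of 135 in N6dT (367 of 31245 genes). Summing near-identical loci gave 11 in NSRdT (main 19), where 800 of 15543 genes were called. Leaving out 1 library gave 10 to 24 in NSRdT, 5 to 26 in N6dT, 11 to 29 in NSR, 6 to 24 in N6 and 2 to 39 in dT (main 25). In dT there were 2 without bulk replicate 3, 6 without bulk replicate 1 and 39 without dT replicate 1 or 2. Over all genes the calls in these fits ran from 225 to 1770, 207 to 1468, 365 to 2581, 359 to 2151 and 299 to 5089 in that order, of 15258 to 16594 tested. Detection at 3 counts or more gave 56.7 loci in NSRdT, 47 in N6dT, 44 in NSR, 47 in N6, 33.7 in dT and 82.7 in bulk, and with 1 library left out the means ran from 80 to 83, 67.5 to 72.5, 66.5 to 72.5, 73 to 76.5, 43.5 to 47.5 and 106 to 109 in that order. Summed CPM with TMM-scaled sizes was 142 in N6dT, 145 in NSR, 163 in N6, 61.7 in dT and 844.5 in bulk. Without rRNA and mitochondrial genes it was 252 in NSRdT, 216 in N6dT, 221 in NSR, 235 in N6, 96.9 in dT and 1619 in bulk. With 1 library left out it ran from 145 to 159, 102 to 108, 112 to 125, 98.7 to 114, 83.2 to 88.9 and 1378 to 1436 in that order. Of fits of called loci with 1 library left out, 443 kept the call and 181 lost it. The cause of these changes was not tested.

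Replicate numbers did not pair libraries. Deviations of same-numbered libraries from their group means, over 3339 genes, had correlations from -0.0437 to 0.0475, and 3 libraries of 18 stood closest to their own number. With the replicate block, called loci numbered 7 of 41 with random primers against dT, where 2292 of 15682 genes were called. Against bulk they numbered 10 of 63 in NSRdT, 6 of 57 in N6dT, 11 of 60 in NSR, 8 of 58 in N6 and 11 of 62 in dT. Over all genes the calls were then 303 of 15553, 312 of 15234, 584 of 15418, 572 of 15207 and 706 of 15708 in that order.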
